A study of Mus musculus with 8 samples.

Results

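Neural lineage marker genes were examined in mouse embryonic stem cells in which an enhancer had been deleted. The genes are widely used markers and were chosen with earlier results of these data known. The 9 were Nes, Pax6, Ncam1, Map2, Tubb3, Hes1, Hes5, Fabp7 and Neurog2, matched by their Ensembl identifiers. Of these, 7 had a row among the 17727 identifiers analysed, and Tubb3 and Fabp7 were not analysed here. The cells were E14TG2a, a feeder-free embryonic stem cell line of strain 129/Ola. All groups were grown on gelatin with serum, leukaemia inhibitory factor, the GSK3 inhibitor CHIR99021 and the MEK inhibitor PD0325901, so every group shares a medium that favours pluripotency. Unedited cells (WT) were compared with 3 knockouts (E1-KO, E2-KO, E3-KO), in which CRISPR/Cas9 had removed an enhancer. Each group held 2 biological replicates by total RNA sequencing. The stated interest was how enhancers and promoters act together in the functions of Sox2, so the comparison asked whether loss of an enhancer went with a change of neural genes. The positions of the enhancers, the number of clones behind each line and any edited control line are not given in the labels, so an effect of an enhancer cannot be told apart from one of clone, culture or library batch.

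Sox2 is a transcription factor that both pluripotent cells and neural progenitors depend on. Neural progenitors carry the intermediate filament nestin and the transcription factor Pax6, and Notch signalling keeps them undifferentiated through the repressors Hes1 and Hes5. Proneural factors such as Neurog2 then drive them towards neurons, which carry Map2 and Tubb3 along their microtubules and Ncam1 at their surface. Hes1 and Ncam1 are also made outside the nervous system, Hes1 in embryonic stem cells themselves.

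Values are FPKM, fragments scaled by gene length and by sequencing depth, so levels may be compared between genes. No label states the unit, and absolute depth was unknown. Relative depth, a rough estimate from the steps between low values, was 0.786 to 1.01 times that of WT replicate 1. Between 11078 and 11265 genes per sample reached 1 FPKM. Sox2, the gene named in the study's design, stood at 130.5 and 136.3 FPKM in WT, 58.03 and 60.27 in E1-KO samples, 113.6 and 97.51 in E2-KO samples, and 97.74 and 90.96 in E3-KO samples, so every knockout sample was below both WT samples. A test was run on log2(FPKM + 1) for the 11272 genes that averaged 1 FPKM or more, and a gene was called at a Benjamini-Hochberg adjusted p under 0.05 by limma-trend. Fold changes on this scale understate the change of low genes. The share of all tested genes called was high. It was 38% in E1-KO (15% higher and 23% lower), 36.1% in E2-KO (14.2% higher and 21.9% lower) and 44.7% in E3-KO (13.9% higher and 30.8% lower). The excess of lower genes depended on the scaling. In E1-KO, 1695 genes were higher and 2589 lower, against 2091 and 2129 with median-ratio scaling. In E2-KO the same pairs were 1596 and 2474 against 2079 and 1908, and in E3-KO 1568 and 3470 against 2387 and 2346. The all-gene median log2 fold change in E3-KO moved from -0.15 to 0.01, so that changes of that size are within the shift that scaling makes. As deposited it was -0.06 and -0.08 in the other knockouts.

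Of the 7 genes with a row, 5 passed the filter and were tested. Averaged over the 8 samples, Hes1 was highest at 35.4 FPKM, followed by Ncam1 at 12.4 and Nes at 7.94. Pax6 at 1.23 and Map2 at 1.14 had ranges over the samples that overlapped almost fully. Hes5 at 0.0763 and Neurog2 at 0.00511 were under the filter. Hes1 was above 86% of all genes analysed, Nes above 59.6% and Map2 above 37.4%. Ncam1 was above Nes in each sample, though the ranges of these genes over all samples overlapped. Pax6 had a WT mean of 0.435 FPKM and passed only through the knockouts where it was high, and Map2 passed only through WT and E1-KO. Counts over the 5 tested genes and the tests of these low genes are therefore descriptions. In E1-KO 3 of the 5 were called, all higher (Nes, Ncam1 and Pax6). In E2-KO Ncam1 and Pax6 were called higher and Map2 lower, and in E3-KO Nes and Ncam1 higher and Hes1 lower. The 3 comparisons share the WT samples. Both samples of a knockout were above both WT samples for Nes, Pax6 and Ncam1 in each knockout, 3 of the 5, and this held for 33%, 29.6% and 25.7% of all tested genes. Both were below for 1, 1 and 2 of the 5 (Hes1, then Map2, then both), beside 44%, 42.2% and 48.4% of all genes. All 6 knockout samples were above WT for 15.3% of genes and below for 28.5%.

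**Figure D1:**
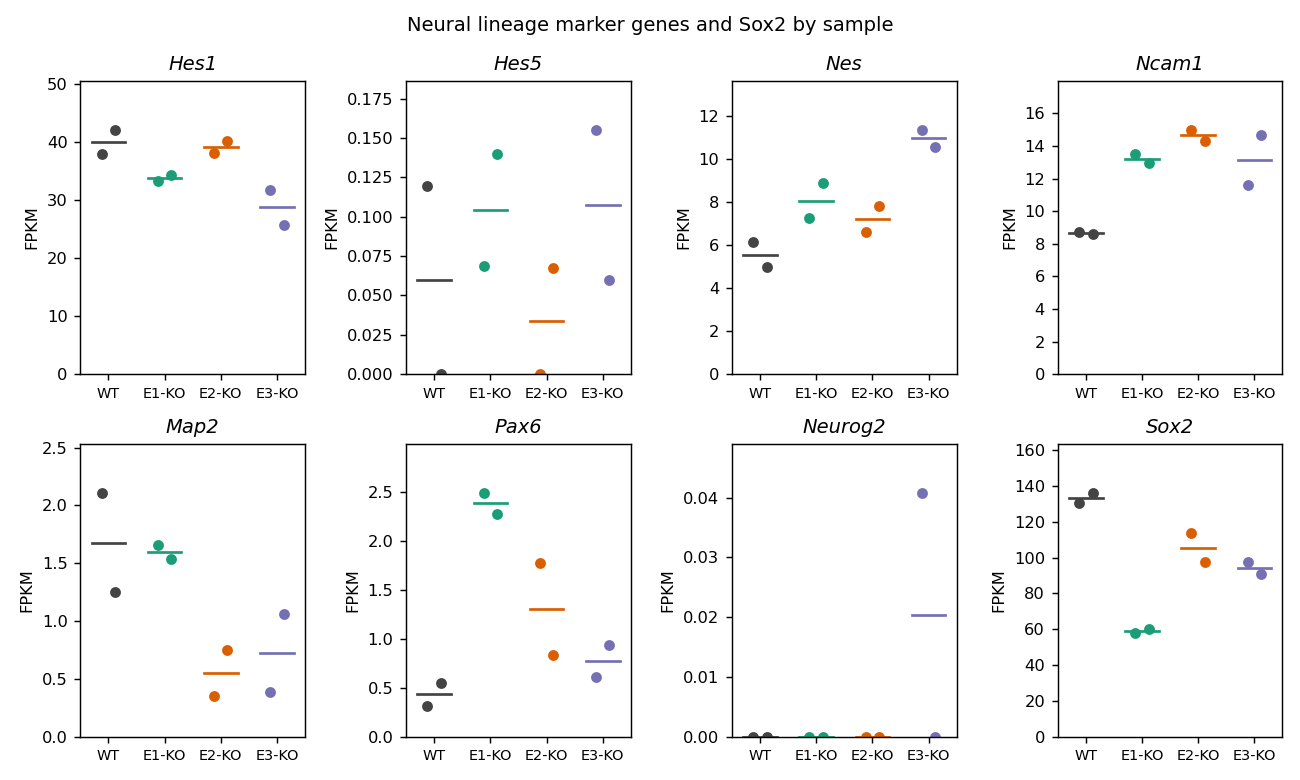
FPKM of the 7 neural marker genes with a row and of Sox2, by group, with 1 point per replicate and a line at the group mean (linear axes from 0, different in each panel). Nes, Pax6 and Ncam1 have all 6 knockout points above both WT points, whereas Hes5 and Neurog2 stay below 0.2 FPKM in all samples.

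Nes and Pax6, the progenitor genes, were low to moderate, and each was called higher in 2 of the 3 knockouts. Nes encodes nestin, an intermediate filament protein of dividing neural progenitors, and lies at 87971078 to 87980451 of chromosome 3 (plus strand, GRCm38, ENSMUSG00000004891). Its values were 6.113 and 4.983 FPKM in WT, 7.261 and 8.861 in E1-KO samples, 6.612 and 7.819 in E2-KO samples, and 11.34 and 10.55 in E3-KO samples. Every knockout sample was above both WT samples, and the E3-KO samples were above all others. Group means were 5.55 ± 0.799 (WT), 8.06 ± 1.13 (E1-KO), 7.22 ± 0.853 (E2-KO) and 10.9 ± 0.561 FPKM (E3-KO; SD, n = 2 each), the knockouts at 1.45, 1.30 and 1.97 times WT. On the log2 scale the rise in E3-KO was 0.87 (SE 0.148, limma-trend adjusted p = 0.00188). That in E1-KO was 0.47 (SE 0.148, limma-trend adjusted p = 0.0344). In E2-KO the difference of 0.33 was not called (95% interval -0.01 to 0.66, limma-trend adjusted p = 0.113), although quantile normalization gave 0.47 and a call (limma-trend adjusted p = 0.034). Without WT replicate 2 the change in E1-KO was 0.34 (limma-trend adjusted p = 0.219), and without WT replicate 1 it was 0.59 (limma-trend adjusted p = 0.0531). Without E1-KO replicate 1 it was 0.60 (limma-trend adjusted p = 0.0546) and without E1-KO replicate 2 it was 0.34 (limma-trend adjusted p = 0.208). It also missed the threshold with all genes above 0 tested (adjusted p = 0.0681) and with scaling that leaves out the 50 highest genes (0.45, adjusted p = 0.0503). The call in E3-KO was kept under each alternative and each left-out sample.

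Pax6, a paired-box and homeobox factor of forebrain and eye progenitors, lies at 105668900 to 105697364 of chromosome 2 (plus strand, GRCm38, ENSMUSG00000027168). Its values were 0.3151 and 0.5549 FPKM in WT, 2.498 and 2.279 in E1-KO samples, 1.780 and 0.8407 in E2-KO samples, and 0.6119 and 0.9411 in E3-KO samples. No knockout sample overlapped WT, E1-KO was the highest group, and E2-KO had a wide spread. The mean was 2.39 ± 0.155 FPKM in E1-KO against 0.435 ± 0.17 in WT (SD, n = 2 each), a ratio of 5.49. The log2 fold change was 1.24 (SE 0.218, limma-trend adjusted p = 0.00282). Since Pax6 entered the test only through the knockouts where it was high, this p and those that follow for Pax6 describe the size of the difference and are no independent support for it. E2-KO averaged 1.31 ± 0.664 FPKM (SD, n = 2) and changed by 0.66 (SE 0.218, limma-trend adjusted p = 0.0415). This call was lost without E2-KO replicate 1 (0.36, limma-trend adjusted p = 0.236), without either WT or either E1-KO replicate (0.54 to 0.78), with the replicate number as a block (adjusted p = 0.0586) and with quantile normalization (0.57, adjusted p = 0.0914). In E3-KO the difference of 0.31 was not called (95% interval -0.19 to 0.80, limma-trend adjusted p = 0.281). Because the level is low, the pseudocount sets the size of the fold change, and 0.1 in place of 1 gave 2.25 in E1-KO. The antisense gene Pax6os1 overlaps Pax6, and whether reads were counted by strand is not given in the sources used here, so their reads cannot be told apart.

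The start regions of Nes and Pax6 are shown because all knockout samples were above WT for both genes and below WT for Sox2. Sequences are the 250 bases before each gene start from RefSeq, build GRCm38.p6, plus strand. Of the 7 genes with a row, 5 matched this table (Nes, Pax6, Map2, Hes5 and Neurog2). Capitals mark ACAAT, the core letters bound by SOX factors, searched on both strands as ACAAT or ATTGT, which 27.7% of 32851 promoters of the same length hold.
Nes (chr3:87970843-87971092): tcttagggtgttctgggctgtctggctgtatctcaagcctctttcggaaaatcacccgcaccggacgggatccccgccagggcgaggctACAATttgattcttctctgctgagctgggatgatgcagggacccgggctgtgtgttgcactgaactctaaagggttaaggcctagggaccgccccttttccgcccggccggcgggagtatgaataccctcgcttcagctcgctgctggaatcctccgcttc
Pax6, first start (chr2:105668646-105668895): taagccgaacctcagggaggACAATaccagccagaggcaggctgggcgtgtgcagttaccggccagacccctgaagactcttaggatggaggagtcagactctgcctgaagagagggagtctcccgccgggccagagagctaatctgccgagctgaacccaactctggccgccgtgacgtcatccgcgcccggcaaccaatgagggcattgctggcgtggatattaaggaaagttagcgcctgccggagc
Pax6, second start (chr2:105682213-105682462): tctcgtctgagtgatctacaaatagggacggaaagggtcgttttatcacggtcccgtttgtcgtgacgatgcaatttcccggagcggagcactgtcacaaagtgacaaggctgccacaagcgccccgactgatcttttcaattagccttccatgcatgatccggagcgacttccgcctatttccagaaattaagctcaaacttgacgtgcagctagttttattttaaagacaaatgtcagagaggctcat
Nes and the first start of Pax6 each hold 1 match and the second start holds none of these letters. A match is a run of letters in the window, and nothing about binding was measured here.

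**Figure D2:**
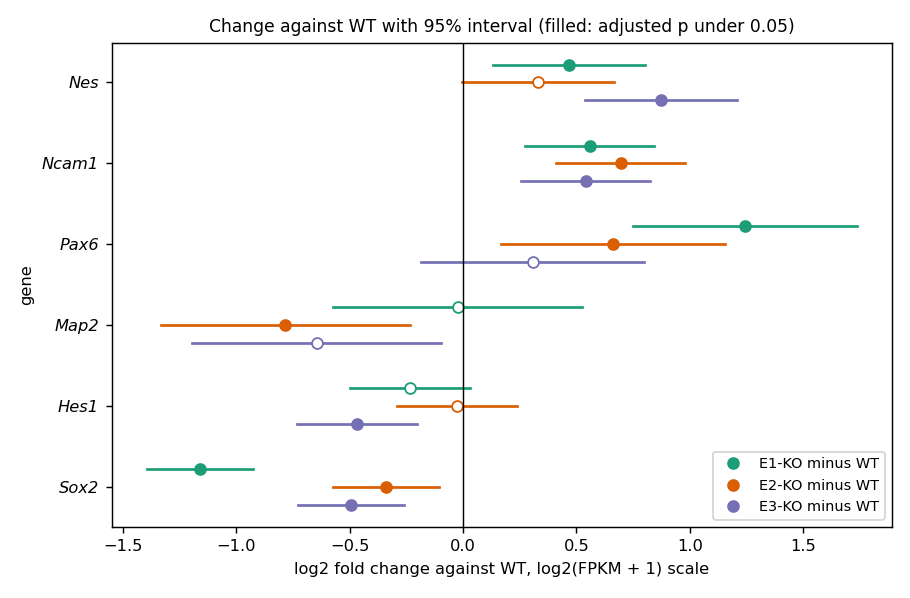
Log2 fold change against WT on the log2(FPKM + 1) scale for the 5 tested marker genes and Sox2, with the 95% interval of the fit, by knockout (filled points: limma-trend adjusted p under 0.05). The intervals of Ncam1 lie above 0 in all 3 knockouts, while those of Map2 and Hes1 include 0 in E1-KO.

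Hes1 and Hes5 are basic helix-loop-helix repressors and main targets of Notch in progenitors. Hes1 lies at 30064384 to 30067796 of chromosome 16 (plus strand, GRCm38, ENSMUSG00000022528). Its values were 37.87 and 42.09 FPKM in WT, 33.27 and 34.30 in E1-KO samples, 38.18 and 40.23 in E2-KO samples, and 31.72 and 25.76 in E3-KO samples. The E1-KO and E3-KO samples were below both WT samples, and E2-KO lay within the WT range. In E3-KO the mean was 28.7 ± 4.21 FPKM against 40 ± 2.99 in WT (SD, n = 2 each), and the log2 fold change was -0.47 (SE 0.117, limma-trend adjusted p = 0.0112). It was not called with median-ratio scaling (-0.30, limma-trend adjusted p = 0.0532), without WT replicate 2 (-0.39, adjusted p = 0.0943) or without E3-KO replicate 2 (-0.32, adjusted p = 0.0574). The change in E1-KO was -0.23 (limma-trend adjusted p = 0.144, and 0.0462 with those 4 samples alone), and that in E2-KO -0.03 (limma-trend adjusted p = 0.877), with a 95% interval of -0.29 to 0.24.

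Hes5 lies at 154960923 to 154962371 of chromosome 4 (plus strand, GRCm38, ENSMUSG00000048001). Its values were 0.1194 and 0 FPKM in WT, 0.06862 and 0.1397 in E1-KO samples, 0 and 0.06724 in E2-KO samples, and 0.1551 and 0.05995 in E3-KO samples. The 6 values above 0 lay, once multiplied by relative depth, within 0.031 of 1 or 2 times the smallest, 3 at each, so that they stand at the lowest steps the libraries can show. All groups overlapped, and with no filter on low values no comparison with WT was called (lowest limma-trend adjusted p = 0.571). Its promoter is shown because Notch acts on this gene through the factor RBPJ. Capitals mark GTGGGAA and its other strand TTCCCAC, found in 5.42% of the 32851 promoters. The same window also holds 2 matches of ATTGT or ACAAT, left in lower case.
Hes5 (chr4:154960673-154960922): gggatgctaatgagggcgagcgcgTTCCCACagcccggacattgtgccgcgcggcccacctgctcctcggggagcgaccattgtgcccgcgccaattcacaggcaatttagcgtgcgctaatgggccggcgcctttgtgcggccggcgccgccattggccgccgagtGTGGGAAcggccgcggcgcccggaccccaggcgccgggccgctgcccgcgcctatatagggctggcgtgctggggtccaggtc
Both orientations of the RBPJ letters occur once in this window, at a gene that stayed near 0 in all samples.

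Ncam1, a cell adhesion molecule of neural and other cells, lies at 49502136 to 49798925 of chromosome 9 (minus strand, GRCm38, ENSMUSG00000039542). Its values were 8.742 and 8.578 FPKM in WT, 13.49 and 12.96 in E1-KO samples, 14.99 and 14.31 in E2-KO samples, and 11.60 and 14.67 in E3-KO samples. All 6 knockout samples were above both WT samples. The means were 1.53, 1.69 and 1.52 times that of WT in E1-KO, E2-KO and E3-KO. E1-KO changed by 0.56 on the log2 scale, E2-KO by 0.70 and E3-KO by 0.54 (SE 0.126 each, limma-trend adjusted p = 0.0088, 0.0036 and 0.00814). Ncam1 was thus called higher in all 3 knockouts, as were 6.56% of tested genes. Without WT replicate 2 the call was lost in E1-KO (0.55, limma-trend adjusted p = 0.0607) and E3-KO (0.53, adjusted p = 0.0545), and without E1-KO replicate 1 it was lost in E1-KO (0.53, adjusted p = 0.0632). The antisense gene Gm11149, which overlaps Ncam1, had 0 to 0.561 FPKM.

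Map2, which binds microtubules in neuronal dendrites, was low and fell in E2-KO. It lies at 66175273 to 66442583 of chromosome 1 (plus strand, GRCm38, ENSMUSG00000015222), and the antisense gene Gm10558 overlaps it. Its values were 2.111 and 1.248 FPKM in WT, 1.661 and 1.540 in E1-KO samples, 0.3493 and 0.7475 in E2-KO samples, and 0.3859 and 1.061 in E3-KO samples. E2-KO and E3-KO were below both WT samples, and E1-KO lay inside the WT range. The log2 fold change of E2-KO was -0.78 (SE 0.242, limma-trend adjusted p = 0.0328). That of E3-KO was -0.65 (adjusted p = 0.0559, and 0.0482 by limma without trend), and without E3-KO replicate 2 it was -0.93 (adjusted p = 0.0276). E1-KO differed by -0.02 (limma-trend adjusted p = 0.944). The call in E2-KO was lost with all genes above 0 tested (limma-trend adjusted p = 0.0652), without WT replicate 1 (-0.55, adjusted p = 0.204) and without E2-KO replicate 1 (-0.60, adjusted p = 0.164). With a pseudocount of 0.1 it was -1.48. Neurog2, a proneural factor, was at 0 in 7 samples and at 0.04084 FPKM in E3-KO replicate 1, and its gene lies on chromosome 3 from 127633135 to 127635631 in GRCm38 (ENSMUSG00000027967).

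Direct comparisons between knockouts show where a marker differed between enhancer losses. Between E2-KO and E1-KO no tested marker was called by limma-trend (0 of 5, beside 0.834% of all tested genes, 0.488% higher and 0.346% lower), nor by limma without trend, and 2 of the 5 had an unadjusted p under 0.05 (Map2 and Pax6). Between E3-KO and E1-KO, Pax6 alone was called (1 of 5, beside 25.8% of all genes, 9.41% higher and 16.4% lower), with the limit of its filter given above, lower in E3-KO by -0.94 on the log2 scale (limma-trend adjusted p = 0.0136). It was not called without E1-KO replicate 1 (-0.89, adjusted p = 0.0829), E1-KO replicate 2 (-0.98, adjusted p = 0.0548) or E3-KO replicate 1 (-0.80, adjusted p = 0.0757). Between E3-KO and E2-KO, Nes was higher in E3-KO by 0.54 (limma-trend adjusted p = 0.0394) and Hes1 lower by -0.44 (limma-trend adjusted p = 0.0357), 2 of 5 beside 15.6% of all genes (5.48% higher and 10.1% lower). Neither was called with the samples of these 2 groups alone or with the replicate block. Nes lost its call without each of 7 of the 8 samples, and its value ranged from 0.44 to 0.65. Hes1 lost its call without each of 7 of the 8 samples, with values from -0.59 to -0.30. Ncam1 was not called between any 2 knockouts (smallest limma-trend adjusted p = 0.433, for E3-KO against E2-KO, 95% interval of the difference -0.44 to 0.13). A test of any difference among the 4 groups called all 5 tested markers, beside 54.5% of all tested genes, and 3 with median-ratio scaling. Pax6 and Map2 passed the filter only through groups where they were high, so this count is a description. The 4 groups of 2 form clusters, so a relation of the markers to Sox2 cannot be tested, and the levels are given side by side. E1-KO, with the lowest Sox2, had the highest Pax6, while E3-KO, with more Sox2 than E1-KO, had the highest Nes and the lowest Hes1.

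Genes whose log2 values varied most like each marker over the 8 samples, by Pearson correlation and given as a description, were BC030867 (r = 0.972) and Arpc5 (0.971) for Nes and Rfc1 (0.985) and Prpf3 (0.985) for Pax6. They were Klhl7 (0.987) and Sucla2 (0.985) for Ncam1, Thra (0.976) and Prelid2 (0.958) for Map2, and Msc (0.992) and Gjb5 (0.985) for Hes1. The points share the 4 groups, so a high r follows mostly the group means. The number of genes above 0.9 was 49 for Nes, 197 for Pax6, 232 for Ncam1, 34 for Map2 and 188 for Hes1.

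The other genes of the neural pathways came from lists of known function, chosen with earlier results of these data known. Counts and medians of the lists are therefore descriptions. Below, a list is described by how many tested genes were called in each direction, beside the shares over all genes given above. For each list and knockout the called genes with the largest changes are named, so a knockout not mentioned for a gene may also have changed. Among 13 Notch ligands, receptors and glycosyltransferases, 9 were tested. Across E1-KO to E3-KO, 5, 4 and 3 were lower and 1, 1 and 0 higher. The list's median log2 fold change was -0.57, -0.37 and -0.29, negative under each scaling tried. Notch3, a receptor, stood at 12.51 and 13.71 FPKM in WT, 4.092 and 4.089 in E1-KO samples, 4.482 and 6.378 in E2-KO samples, and 7.815 and 9.021 in E3-KO samples. It was lower than WT in every knockout sample, and the log2 fold change was -1.47 in E1-KO (limma-trend adjusted p = 0.000332) and -1.15 in E2-KO (adjusted p = 0.00104). Jag1, a ligand, fell from 4.004 and 5.117 FPKM to 1.422 and 1.198 in E1-KO, a log2 fold change of -1.26. Jag1 in E2-KO changed by -0.76, a call lost without WT replicate 2 (-0.62, limma-trend adjusted p = 0.0994). Notch4 rose instead, from 2.688 and 2.850 FPKM in WT to 8.647 and 5.192 for E1-KO (1.04) and 6.199 and 5.724 for E2-KO (0.88), and the latter was lost in 3 of 18 alternatives, at worst without WT replicate 1 (0.85, limma-trend adjusted p = 0.0616). In E3-KO, Notch2 fell by 0.69 and the glycosyltransferase gene Pofut1 fell by 0.65. Both were also called lower in E1-KO (-0.57 and -0.59) and E2-KO (-0.51 and -0.43).

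Of 14 proteases, nuclear partners and regulators of Notch, 12 were tested, and 5, 5 and 4 were lower in E1-KO, E2-KO and E3-KO with none higher. Their median was -0.06, -0.20 and -0.20, and with median-ratio scaling it was 0.01, -0.11 and -0.04. That scaling also called 1 gene higher in E2-KO, and quantile normalization called 1 higher in E3-KO. Psen2, a subunit of the gamma-secretase that releases the Notch intracellular domain, changed by -1.32, -1.34 and -1.73. The coactivator Maml2 changed by -1.11 in E1-KO and -0.82 in E2-KO. Dtx1, which encodes a Notch-binding ubiquitin ligase, went from 11.77 and 15.59 FPKM in WT to 2.985 and 3.216 in E3-KO (log2 fold change -1.83, limma-trend adjusted p = 0.00012). Of 5 further genes listed with Notch only Hes6 was tested, and it changed by -0.76 in E3-KO (limma-trend adjusted p = 0.00417). Whether Hes6 follows Notch in these cells was not tested, so its fall is no reading of Notch activity. Id proteins oppose proneural factors, and REST represses neuronal genes. Of these 13 Id and REST complex genes all were tested, and 3 were higher and 1 lower in each knockout. With median-ratio scaling 4, 4 and 6 were higher and 1 lower in each. Id1 stood at 3.837 and 3.025 FPKM in WT, 17.08 and 13.36 in E1-KO samples, 15.24 and 8.25 in E2-KO samples, and 18.09 and 16.47 in E3-KO samples. Every knockout sample was above WT, with log2 fold changes of 1.87, 1.47 and 2.05. Id2 rose in E3-KO by 1.02, Id4 fell in all 3 knockouts (-1.28, -1.06 and -1.17), and Rcor2, a REST corepressor, rose in E1-KO (0.89) and E2-KO (0.99). Rest itself was not called in any knockout (-0.03, 0.10 and 0.06 in E1-KO, E2-KO and E3-KO).

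**Figure D3:**
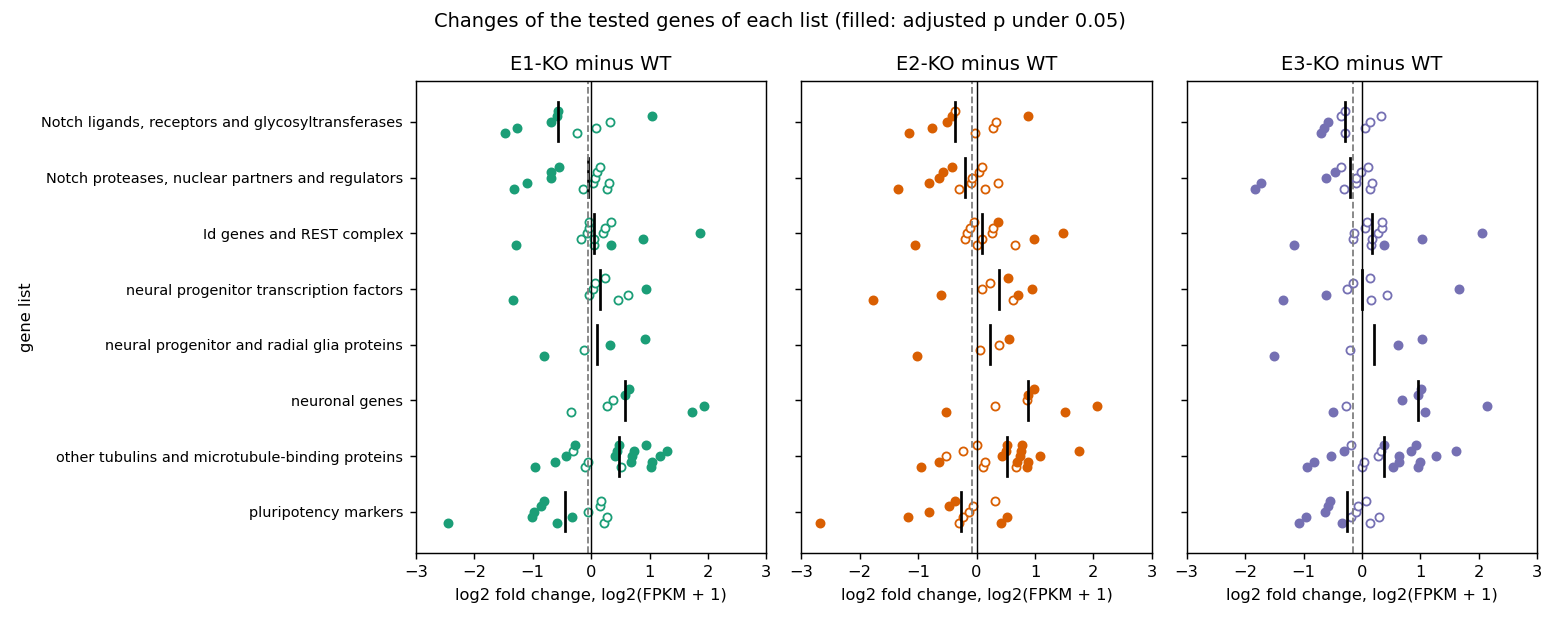
Log2 fold change against WT of each tested gene of 8 lists, by knockout (filled: limma-trend adjusted p under 0.05), with the list's median as a black bar and the median of all tested genes as a dashed line. Neuronal genes have medians of 0.58, 0.88 and 0.96, and Notch ligands, receptors and glycosyltransferases medians of -0.57, -0.37 and -0.29.

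Neural progenitor transcription factors were mostly low. Of 25 with a row, 16 stayed under 1 FPKM in all samples, and 8 were tested, with 1, 3 and 1 higher and 1, 2 and 2 lower across the knockouts E1-KO to E3-KO. This balance depended on the scaling, since quantile normalization gave 4, 4 and 3 higher and 1 lower in each, and median-ratio scaling 3, 4 and 2 higher and 1 lower in each. Sox1, an early neural gene, was not analysed here. Otx2, of forebrain and epiblast, was at 14.85 and 16.52 FPKM in WT, 6.02 and 5.205 in E1-KO samples, 3.533 and 4.264 in E2-KO samples, and 5.222 and 5.885 in E3-KO samples. It was lower in every knockout sample, with log2 fold changes of -1.34, -1.77 and -1.35. Meis2 rose in E2-KO (0.94) and E3-KO (1.66), from 11.4 ± 1.88 FPKM in WT to 38 ± 1.15 in E3-KO (SD, n = 2 each). Hesx1 changed by -0.61 in both E2-KO and E3-KO, each lost in 6 of 19 alternatives, at worst without WT replicate 2 (limma-trend adjusted p = 0.16 and 0.134, at -0.52 each). Of 10 radial glia and progenitor proteins, 4 were tested. Msi1, an RNA-binding protein of neural stem cells, fell from 37.82 and 42.41 FPKM in WT to 22.51 and 22.68 in E1-KO samples, 17.21 and 21.48 in E2-KO samples, and 12.88 and 14.01 in E3-KO samples, with log2 fold changes of -0.80, -1.02 and -1.51. The glutamate transporter Slc1a3 rose by 1.02 in E3-KO and by 0.92 in E1-KO, where it was lost in 2 of 18, at worst without E1-KO replicate 2 (0.74, limma-trend adjusted p = 0.0673). The filament gene Vim rose by 0.62 in E3-KO and by 0.55 in E2-KO, where it was lost in 3 of 19 alternatives, at worst without WT replicate 2 (0.55, limma-trend adjusted p = 0.0818). Msi2 was 0.32 higher in E1-KO, lost in 5 of 19 alternatives, at worst without WT replicate 1 (0.25, limma-trend adjusted p = 0.202).

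Among 16 neuronal genes with a row, 7 were tested, and 4, 4 and 5 were higher in E1-KO, E2-KO and E3-KO against 0, 1 and 1 lower. The median was 0.58, 0.88 and 0.96, above 0 under each scaling tried, and with quantile normalization 6 were higher and 0 lower in E2-KO. In all samples 7 genes stayed under 1 FPKM. Neurofilament genes led the rises. Nefh was at 2.401 and 2.316 FPKM in WT, 9.58 and 10.56 in E1-KO samples, 14.81 and 11.47 in E2-KO samples, and 12.05 and 15.62 in E3-KO samples. Every knockout sample was more than 3 times any WT sample, and the log2 fold changes were 1.72, 2.06 and 2.13 (limma-trend adjusted p = 0.00019, 9.58e-05 and 6.53e-05). Ina, for internexin, was at 1.604 and 1.729 FPKM in WT, 10.4 and 8.061 in E1-KO samples, 5.966 and 7.329 in E2-KO samples, and 3.695 and 4.688 in E3-KO samples. Ina was called in E1-KO (1.93), E2-KO (1.52) and E3-KO (0.96). Nefl rose in E3-KO by 1.08 and in E2-KO by 0.99, and was not called in E1-KO (0.27). The RNA-binding protein gene Elavl2 fell in both E2-KO (-0.52) and E3-KO (-0.49), calls lost in 4 and 5 of 19 alternatives, at worst without WT replicate 2 in E2-KO (-0.45, limma-trend adjusted p = 0.13) and with quantile normalization in E3-KO (-0.27, adjusted p = 0.162). The widely used neuronal markers Dcx and Rbfox3 were near 0, with Dcx at most 0.00742 FPKM and Rbfox3 at most 0.256. Of 15 proneural factors with a row, 14 stayed under 1 FPKM in all samples. Neurod1 was the exception, at 1.147 and 1.451 FPKM in WT and 5.793 and 4.787 in E3-KO (log2 fold change 1.45, limma-trend adjusted p = 0.000257).

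In 21 tubulin and microtubule-binding genes with a row, 19 were tested, with 11, 11 and 10 higher and 4, 2 and 4 lower across E1-KO to E3-KO. The median was 0.47, 0.52 and 0.39, above 0 under each scaling tried, and with median-ratio scaling 1 gene in place of 4 was lower in E1-KO. Tuba1a stood at 116.6 and 109.4 FPKM in WT, 281.4 and 233.2 in E1-KO and 209.9 and 279.2 in E2-KO, with log2 fold changes of 1.17 and 1.09. Tuba1a was also called in E3-KO (0.97). Its paralogs Tuba1b and Tuba1c share reads with it, so the split between them is uncertain. Crmp1, a growth cone protein, had log2 fold changes of 1.29, 1.76 and 1.61, from 0.1198 and 0.3149 FPKM in WT to 2.424 and 1.577 in E1-KO. With a WT mean of 0.217 FPKM, Crmp1 passed the filter only through the knockouts where it was high, so its place among the higher genes is a description. Map4, the relative of Map2 that is made in most cells, went from 138.4 and 140.1 FPKM in WT to means of 70.7, 72.2 and 72.5 in the knockouts (-0.97, -0.94 and -0.94). Map7 changed by -0.65 in E2-KO, and it was also called in E1-KO (-0.28) and E3-KO (-0.30). Dpysl3 rose in E3-KO by 1.26 but its WT replicates were 2.31 and 0.4627 FPKM, and without WT replicate 2 it was 0.67 (limma-trend adjusted p = 0.0665). Dpysl5 was lower in E1-KO (-0.62) and E3-KO (-0.82). Its call was lost in 8 of 18 alternatives in E1-KO, at worst without WT replicate 1 (-0.58, limma-trend adjusted p = 0.151). In E3-KO it was lost in 2 of 18, at worst without E3-KO replicate 2 (-0.68, adjusted p = 0.0616).

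**Figure D4:**
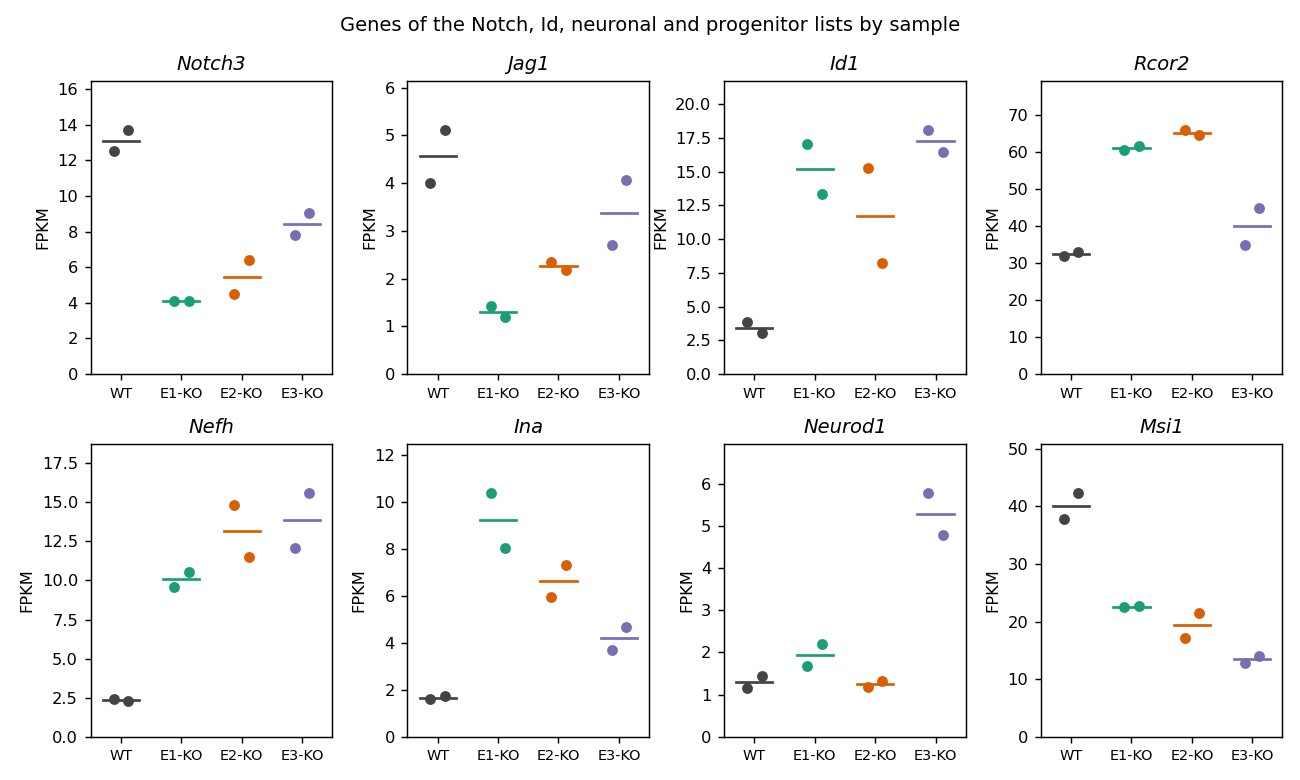
FPKM by group of 8 genes of the Notch, Id, REST complex, neuronal, proneural and progenitor lists, with 1 point per replicate and a line at the group mean (linear axes from 0, different in each panel). Notch3 and Msi1 are lower and Nefh and Ina higher in every knockout sample than in WT, and Neurod1 is highest in E3-KO.

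The labelled cell type was checked on its markers. Pou5f1 had means of 371, 448, 499 and 457 FPKM in WT, E1-KO, E2-KO and E3-KO, Nanog 459, 515, 571 and 404, Zfp42 191, 223, 276 and 200 and Esrrb 235, 187, 199 and 152, so these 4 genes were high in all groups. Of 12 tested pluripotency markers, 7, 5 and 6 were lower and 0, 2 and 0 higher in E1-KO, E2-KO and E3-KO. With quantile normalization 8 were lower and 0 higher in E2-KO, and with median-ratio scaling 5 were lower and 2 higher in E3-KO. Dppa3, a germline and naive-state gene, changed by -2.45, -2.68 and -0.96, Klf4 by -1.17 (E2-KO) and -1.08 (E3-KO), and Tfcp2l1 by -1.01 in E1-KO. Dppa3 and Nanog lie on chromosome 6, whose 535 tested genes had a median of -0.62 in E3-KO against -0.13 elsewhere. Pou5f1 and Zfp42 were higher in E2-KO by 0.42 and 0.51. Pou5f1 lost its call in 8 of 19 alternatives (0.06 with quantile normalization, limma-trend adjusted p = 0.65) and Zfp42 in 6 of 19 (0.50 without WT replicate 1, adjusted p = 0.118). Among markers of other lineages, the summed level of 7 mesoderm genes was 2.98 to 3.20 FPKM in WT and 2.57 to 3.78 in knockouts, with T highest in WT at a mean of 1.9 FPKM against 0.0979 to 0.266. The summed level of 6 endoderm genes was 2.79 to 3.00 FPKM in WT and 1.27 to 5.13 in knockouts. That of 8 fibroblast genes was 3.498 to 3.565 FPKM in WT and 3.484 to 4.567 in E2-KO. It was higher in E1-KO (5.434 to 5.701) and E3-KO (4.802 to 5.142). In a bulk sample, more cells of a neural kind and more neural RNA in each cell cannot be told apart. The part of other cell types in the changes of the neural genes was not tested.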

How the data were processed

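Total RNA from 8 samples (WT, E1-KO, E2-KO and E3-KO, 2 replicates each) was sequenced as paired reads of 150 bases, per the labels' protocols. The authors deposited 1 value per gene row and sample, taken here as FPKM from the values, since no label states the unit. The submitters' processing notes name Trimmomatic 0.36, TopHat2 2.0.12, Cufflinks 2.2.1 and mm9, with no roles given. The annotation, strand setting and any normalization between samples are not given in the sources used here. Positions are those of GENCODE M21 (GRCm38), not mm9.

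Of 18774 rows, 17812 identifiers were distinct. For the 660 repeated ones the row at the gene's place in the chromosome order was kept (575) or the identifier left out (85). Symbols matched 17262 identifiers. limma-trend (limma 3.58.1, R 4.3.3) was fitted on log2(FPKM + 1) for genes averaging 1 FPKM or more, with all 8 samples, the group as the only term, 4 residual degrees of freedom and a two-sided Benjamini-Hochberg threshold of 0.05. The script was tested on simulated data. An exact permutation test of 2 against 2 samples cannot go below p = 0.333 and was not used. Samples are labelled biological duplicates, and nothing says whether these were separate clones.

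The genes and lists were chosen with earlier results of these data known. Genes named singly were the 9 markers, Sox2, Rest, 4 pluripotency genes, and the markers Sox1, Dcx, Rbfox3, Gfap and T. For each list and knockout, up to 2 called genes per direction with the largest change were also named. So were the 2 genes most like each tested marker. Some genes that this rule selects are not reported here. Overlapping and antisense genes were listed from the annotation. Alternatives were other scalings, pseudocount, filters, variance prior, samples in the fit, repeated identifiers, the replicate block and leaving out each sample. Figures used matplotlib 3.10.9 and Python 3.11.15. Absolute depth was unknown, so counting error has no interval here.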

Additional observations from a re-analysis of the deposited data

Results flagged for a closer look

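In 3 of the tested neural markers the change against WT differed between knockouts in a direct test by limma-trend. Nes was higher in E3-KO than in E2-KO by 0.54 on the log2 scale (adjusted p = 0.0394), where 15.6% of all tested genes were called. Pax6 was lower in E3-KO than in E1-KO by -0.94 (adjusted p = 0.0136), where 25.8% of all tested genes were called. Pax6 passed the filter on low values only through the knockouts where it was high, so this p is a description. Hes1 was lower in E3-KO than in E2-KO by -0.44 (adjusted p = 0.0357). With a single sample left out, Nes kept its call only without E2-KO replicate 2, and Hes1 only without E3-KO replicate 1. Pax6 lost its call without either E1-KO replicate or E3-KO replicate 1. With the samples of the pair alone and with the replicate block, Nes and Hes1 were not called. Hes1 was also not called under any other scaling tried. Sox2 was higher in E2-KO than in E1-KO by 0.82 (adjusted p = 0.0161) and in E3-KO than in E1-KO by 0.66 (adjusted p = 0.00224). The former call was lost without either E1-KO replicate or E2-KO replicate 1 (0.71 to 0.85). It was also lost with the samples of the pair alone (adjusted p = 0.0551) and with all genes above 0 tested (adjusted p = 0.0563). Outliers within a group were not looked for, since each group held 2 samples.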

How the results depend on the processing

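No called fold change of a marker or named list gene changed sign among the alternatives. Marker changes that were not called and lay near 0 did so, namely Map2 in E1-KO (-0.26 to 0.21) and between E3-KO and E2-KO (-0.15 to 0.42), Hes1 in E2-KO (-0.10 to 0.06), and Ncam1 for E3-KO against E1-KO (-0.17 to 0.14) and against E2-KO (-0.31 to 0.002). Of the 12 called marker changes, 6 were kept under all alternatives that use every sample and 3 with each sample left out. Of 86 called changes of named list genes, 73 and 65 were kept. The number of genes called between E2-KO and E1-KO, 94, was 1 with the samples of the pair alone, 1 with all genes above 0 and 58 in genes averaging 5 FPKM or more, and the 1753 between E3-KO and E2-KO became 671 with the pair alone. Markers called in E2-KO went from 3 to 1 with all genes above 0 and to 1 in genes averaging 5 FPKM or more, which leaves 3 markers tested. Between E3-KO and E1-KO, 1 marker became 2 with quantile normalization, 2 with median-ratio scaling and 0 in genes averaging 5 FPKM or more. Between E3-KO and E2-KO, 2 markers became 1 with quantile normalization, 1 with median-ratio scaling, 1 without the 50 highest genes in the scaling, 1 with limma without trend, 0 with the pair alone and 0 with all genes above 0. For any difference among the groups, 5 became 3 with median-ratio scaling and 3 in genes averaging 5 FPKM or more. The cause of these shifts was not tested, except that that filter leaves Pax6 and Map2 untested. Replicate numbers did not pair the samples (mean correlation of deviations 0.0051 over genes, range -0.0423 to 0.0896), and with the replicate block 4058, 3854 and 4809 genes were called in E1-KO, E2-KO and E3-KO, 31 between E2-KO and E1-KO, 2685 for E3-KO against E1-KO, and 1525 for E3-KO against E2-KO. The block gave 3, 2 and 3 called markers against WT, 0, 1 and 0 between knockouts in the same order, and 4 for any difference. Leaving out each sample in turn gave 2041 to 4673 genes in E1-KO, 1871 to 4452 in E2-KO, 2829 to 5340 in E3-KO, 2 to 261 between E2-KO and E1-KO, 1306 to 3274 for E3-KO against E1-KO, and 974 to 1546 for E3-KO against E2-KO. Markers called ranged from 1 to 3 in each knockout, 0 to 0 between E2-KO and E1-KO, 0 to 2 between E3-KO and E1-KO, 0 to 1 between E3-KO and E2-KO and 2 to 5 for any difference. Where a group keeps 1 sample, it is assumed to vary like the other groups. Low values of Hes5 and Neurog2 cannot show a difference of their size at this depth.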

Other observations

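Glial genes, which mark cells made after neurons in the neural lineage, were low except for 1. Of 9 with a row, 3 were tested. Aldh1l1, a folate enzyme used as an astrocyte marker, stood at 18.55 and 20.77 FPKM in WT, 6.376 and 6.093 in E1-KO samples, 3.764 and 4.357 in E2-KO samples, and 2.645 and 3.148 in E3-KO samples. Its log2 fold changes were -1.51, -2.03 and -2.41 (limma-trend adjusted p = 0.000169, 5.82e-05 and 3.17e-05). It lies on chromosome 6, whose tested genes had a median of -0.62 in E3-KO, -0.05 in E1-KO and -0.07 in E2-KO. Gfap, another astrocyte marker, was at most 0.133 FPKM. Mog was higher in E1-KO (0.76), lost in 2 of 17, at worst without WT replicate 2 (0.59, adjusted p = 0.131).

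Of 7 trophectoderm genes 5 were tested, and 1, 0 and 2 were called higher and 2, 2 and 0 lower across E1-KO to E3-KO, beside 38%, 36.1% and 44.7% of all genes called in either direction. Gata3, a trophectoderm factor, went from 1.48 and 1.564 FPKM in WT to 8.859 and 4.842 in E3-KO (1.59, limma-trend adjusted p = 0.00227), and the keratin gene Krt8 rose there by 1.16. Krt8 was also higher in E1-KO (0.64), lost in 4 of 19 alternatives, at worst without E1-KO replicate 1 (0.45, adjusted p = 0.176). Krt18 was lower in both E1-KO (-0.67) and E2-KO (-1.46), the former lost in 6 of 19, at worst without E1-KO replicate 2 (-0.58, adjusted p = 0.154). Tfap2c fell in both E1-KO (-1.01) and E2-KO (-0.64). Of 6 endoderm genes with a row, Gata6 was tested, and it passed the filter on low values only through E3-KO. Its log2 fold change there was 0.79 as a description, a call lost in 3 of 18, at worst without E3-KO replicate 1 (0.40, adjusted p = 0.137). The surface protein gene Thy1, carried by fibroblasts and neurons, had a WT mean of 0.768 FPKM and passed the filter through the knockouts where it was high. It was higher in E1-KO (1.03), E2-KO (0.51) and E3-KO (1.06), and in E2-KO the call was lost in 8 of 18, at worst without WT replicate 2 (0.45, adjusted p = 0.179).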
